A study of Rattus norvegicus with 6 samples.

Results

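The 7 genes described here encode pumps that move sodium and calcium out of the cytosol against their gradients. They were chosen by name, under a rule that uses no measured value, but with earlier results of these data known. The genes are Atp1b1 and Atp1b3 (beta subunits of Na,K-ATPase), Atp2a2 (the calcium pump SERCA2 of the endoplasmic reticulum) and Atp2b1, Atp2b2, Atp2b3 and Atp2b4 (the plasma membrane calcium ATPases, PMCAs). They are 7 of the 25689 genes counted, and all 7 were among the 14919 genes that passed the filter on low counts. The rats were spontaneously hypertensive rats (SHRs), and neurons isolated from their dorsal root ganglia (DRGs) at L1-L2 were the source of the total RNA. It was sequenced in 3 samples taken 4 weeks after ablation of the perirenal adipose tissue (PRATA) and in 3 samples from sham-operated SHRs. All 6 samples are labelled wild type in genotype and 6 to 8 weeks in age. That age is below the one the methods give for the rats at purchase. The ganglia were digested with enzymes and plated, and neurons were parted from glial cells because they stick to the dish more slowly, so glial cells may remain. The labels do not say that the samples of a group come from separate rats, and p-values therefore measure only the spread between these samples, which may be technical.

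Na,K-ATPase exports sodium and imports potassium with the energy of ATP, which restores the gradients after action potentials. Its alpha subunit carries out transport, and its beta subunit is needed for the assembly of the pump and its delivery to the membrane. PMCAs extrude calcium across the plasma membrane and are activated by calmodulin, while SERCA pumps load calcium into the endoplasmic reticulum, and in sensory neurons both return cytosolic calcium to its resting level after activity.

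The 250 bases before the start of Atp2b1, Atp2b2 and Atp2b4 are printed here because these 3 PMCA paralogs had different patterns over the samples. The sequences are RefSeq promoter windows of the rat assembly GRCr8, printed 5′ to 3′ on the strand of the gene, with matches to the searched motifs on either strand in capitals.
Atp2b1, chr7:35622211-35622460, plus strand: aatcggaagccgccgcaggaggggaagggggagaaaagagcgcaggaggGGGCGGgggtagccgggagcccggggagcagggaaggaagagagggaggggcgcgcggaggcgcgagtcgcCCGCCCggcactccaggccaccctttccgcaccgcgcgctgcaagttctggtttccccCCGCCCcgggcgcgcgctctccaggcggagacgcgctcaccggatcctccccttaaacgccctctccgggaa
Atp2b2, chr4:148763654-148763903, minus strand: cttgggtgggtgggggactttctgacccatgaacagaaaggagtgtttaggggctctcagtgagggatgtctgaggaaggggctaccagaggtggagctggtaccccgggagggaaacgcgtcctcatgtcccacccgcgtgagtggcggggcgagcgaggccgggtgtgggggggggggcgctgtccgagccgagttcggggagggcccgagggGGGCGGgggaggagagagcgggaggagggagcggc
Atp2b4, chr13:47758877-47759126, minus strand: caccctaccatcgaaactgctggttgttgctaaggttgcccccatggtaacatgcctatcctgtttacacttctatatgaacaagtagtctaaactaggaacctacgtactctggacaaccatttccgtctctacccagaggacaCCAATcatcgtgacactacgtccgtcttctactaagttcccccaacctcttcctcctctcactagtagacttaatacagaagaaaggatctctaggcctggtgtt

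The motifs searched were the GC box (GGGCGG), the TATA box (TATAAA), the CCAAT box (CCAAT), the cAMP response element (TGACGTCA) and the E box (CACGTG). Of the 33469 promoter windows in the table, 30.5% held a GC box, 12.9% a TATA box, 34.0% a CCAAT box, 1.59% a cAMP response element and 5.59% an E box. The window of Atp2b1 had a GC content of 72.8% and 3 GC boxes. That of Atp2b2 had 69.2% and 1 GC box, beside a median of 51.2% over all windows. The window of Atp2b4 had a GC content of 46.4%, no GC box and 1 CCAAT box, so it was the one of these 3 below the median GC content. Windows of Atp1b3 and Atp2a2 were also found, with GC contents of 79.6% and 80.0%, which made 5 of the 7 genes with an entry. Atp1b1 and Atp2b3 had none. These matches describe the letters of the windows alone.

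Total counts per sample lay between 5892967 (sham replicate 2) and 15226952 (sham replicate 1). Levels are TMM-normalized CPM, that is, counts scaled by edgeR to a common library size, and on this scale 3 counts correspond to between 0.207 and 0.468 CPM, and all 7 genes lay far above this floor. Counting error is therefore small for these genes, and the spread between samples sets the precision. Transcript lengths were not used, so levels are compared between samples and not between genes. PRATA replicate 3 and sham replicate 1 stood apart in the share of counts on the 7SL RNA gene Rn7sl1, at 5.40% and 5.63% beside 1.25% to 1.52% in the other 4 samples. Among all genes tested by edgeR, 0 (0%) had a Benjamini-Hochberg adjusted p under 0.05, and the smallest adjusted p was 0.156, while 2734 had an unadjusted p under 0.05. The number at an adjusted p under 0.05 was 728 in DESeq2 and 1173 in limma voom with sample quality weights.

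For none of the 7 pump genes did the levels separate the PRATA samples from the sham samples. In edgeR, 0 of the 7 had an unadjusted p under 0.05 in either direction, beside 8.19% of all genes tested that were higher and 10.1% that were lower after PRATA at this threshold. The groups overlapped for all 7, whereas they did not overlap for 11.6% of all genes in the higher and 11.2% in the lower direction. The log2 fold change of PRATA against sham was above 0 for 6 of the 7 genes, for 5 with DESeq2's size factors and for 4 with library size alone, and its median was 0.37 beside 0.02 over all genes tested. The median varied with single samples: it was 0.19 without PRATA replicate 1, 0.14 without sham replicate 1, 0.64 without sham replicate 2 and 0.13 without both PRATA replicate 3 and sham replicate 1. No adjusted p of these genes fell under 0.05 in any of the 17 alternative fits. In bulk samples, fewer cells of a type and less RNA per cell cannot be told apart, and this holds for every level below.

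**Figure D1:**
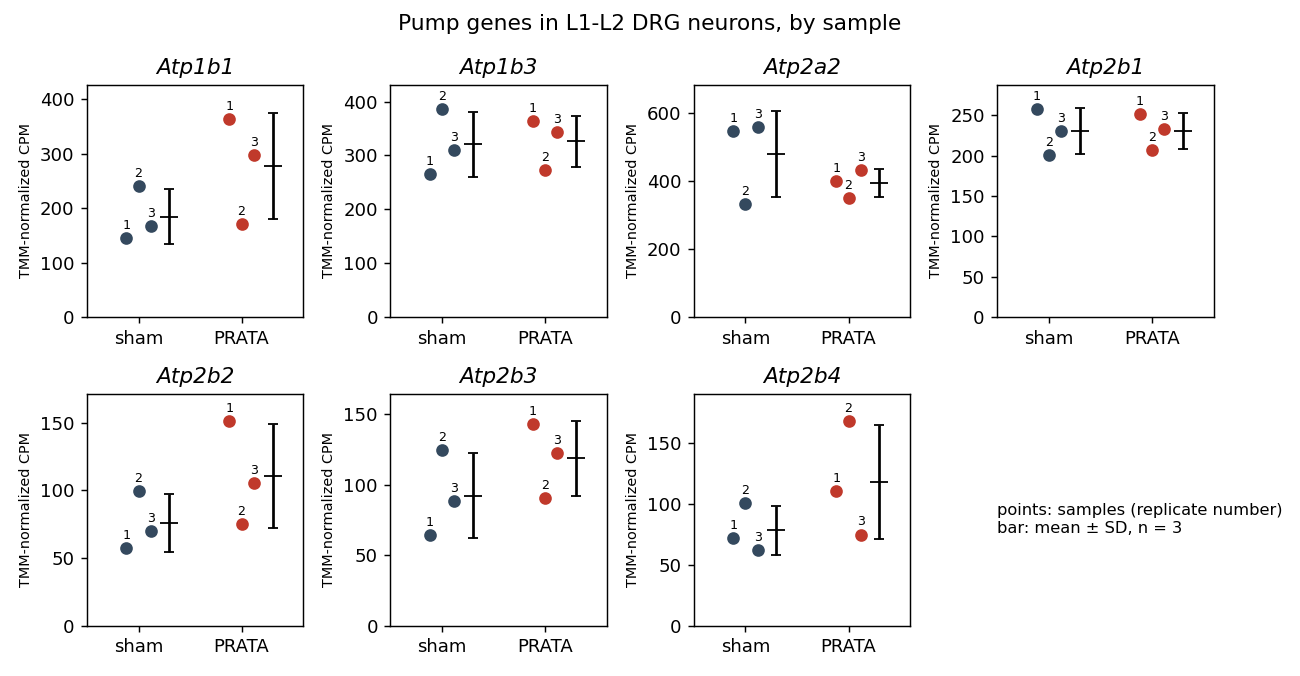
Level of each of the 7 pump genes in each sample (y axis, TMM-normalized CPM, starting at 0) for the sham and PRATA groups; numbers are replicates and bars show the mean ± SD of 3 samples. The groups overlap in every panel, from Atp2b1, whose 6 samples lie between 201 and 259 CPM, to Atp2b4, where PRATA replicate 2 stands at 168 CPM.

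Atp1b1 encodes the beta1 subunit of Na,K-ATPase. Its level was 364, 171 and 298 CPM after PRATA and 145, 241 and 167 CPM after the sham operation, in the order of the replicate numbers here and throughout. PRATA replicates 1 and 3 were the highest samples, while PRATA replicate 2 lay below sham replicate 2 and close to sham replicate 3. PRATA samples averaged 277 ± 98.1 CPM and sham samples 184 ± 50.1 CPM (SD, n = 3 each). PRATA differed from sham by 0.59 on the log2 scale (SE 0.31), with an adjusted p of 0.347 in edgeR and between 0.107 and 0.750 in the alternative fits. This value was 0.32 without PRATA replicate 1, 0.85 without PRATA replicate 2, 0.83 without sham replicate 2 and 0.38 without both PRATA replicate 3 and sham replicate 1.

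Atp1b3 encodes the beta3 subunit of the same pump. Its level was 363, 273 and 343 CPM after PRATA and 266, 385 and 310 CPM after the sham operation. The highest and the lowest sample were both sham samples, and the highest stood 1.45-fold above the lowest, beside 2.50-fold for Atp1b1. Its log2 fold change was 0.03 (SE 0.22), with an adjusted p of 0.961 in edgeR, and it lay between -0.14 and 0.18 in the alternative fits, on both sides of 0. Without both PRATA replicate 3 and sham replicate 1 it was -0.14.

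Atp2a2 encodes SERCA2, which refills the calcium store of the endoplasmic reticulum, and it was the only one of the 7 genes with a lower mean after PRATA. Its level was 399.8, 349 and 433 CPM after PRATA and 546, 332 and 558 CPM after the sham operation. Sham replicates 1 and 3 were the 2 highest samples and sham replicate 2 was the lowest, so the PRATA samples lay inside the sham range. Its log2 fold change was -0.28 (SE 0.25), with an adjusted p of 0.569 in edgeR. It was below 0 in all 17 alternative fits, between -0.49 and -0.15, and it was -0.15 without sham replicate 3 and -0.49 without sham replicate 2, where the adjusted p in edgeR was 0.140. Without both PRATA replicate 3 and sham replicate 1 it was -0.26.

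Atp2b1 encodes PMCA1, the widely expressed plasma membrane calcium pump. Its level was 252, 207 and 234 CPM after PRATA and 259, 201 and 231 CPM after the sham operation. The 6 samples differed by at most 1.28-fold, the smallest span among the 7 genes, and the PRATA and sham means were 231 ± 22.7 and 230.2 ± 28.6 CPM (SD, n = 3 each). The log2 fold change was 0.00 (SE 0.18), with an adjusted p of 0.994 in edgeR. It lay between -0.09 and 0.08 in the alternative fits and was 0.08 without both PRATA replicate 3 and sham replicate 1.

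Atp2b2 encodes PMCA2, a pump with fast calcium extrusion that is known from neurons and hair cells. Its level was 151, 75.2 and 105 CPM after PRATA and 57.7, 99.3 and 70.0 CPM after the sham operation. As for Atp1b1, PRATA replicates 1 and 3 were the highest samples and PRATA replicate 2 fell between sham replicates 2 and 3. PRATA and sham differed by a log2 fold change of 0.55 (SE 0.30), with an adjusted p of 0.356 in edgeR. It was 0.79 without sham replicate 2, 0.76 without PRATA replicate 2, 0.23 without PRATA replicate 1, 0.36 without sham replicate 1 and 0.41 without both PRATA replicate 3 and sham replicate 1.

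Atp2b3 encodes PMCA3, a largely neuronal pump. Its level was 143, 90.4 and 123 CPM after PRATA and 64.1, 124 and 88.4 CPM after the sham operation. Sham replicate 2 stood above PRATA replicates 2 and 3, and sham replicate 1 was the lowest sample. Its log2 fold change was 0.37 (SE 0.28), with an adjusted p of 0.500 in edgeR. It was 0.64 without sham replicate 2, 0.19 without PRATA replicate 1, 0.14 without sham replicate 1 and 0.13 without both PRATA replicate 3 and sham replicate 1.

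Atp2b4 encodes PMCA4, the fourth plasma membrane calcium pump. Its level was 111, 168 and 75.0 CPM after PRATA and 71.8, 101 and 62.4 CPM after the sham operation. It was the only one of the 7 genes with its highest level in PRATA replicate 2, and the 6 samples spanned 2.69-fold, the widest span of the 7. The log2 fold change was 0.59 (SE 0.31), with an adjusted p of 0.343 in edgeR. Without PRATA replicate 2 it was 0.25, and without PRATA replicate 3 it was 0.84 with an adjusted p of 0.332 in edgeR. Without both PRATA replicate 3 and sham replicate 1 it was 0.77.

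The levels of the sensory neuron markers also differed between samples, and the order of the samples was similar to that of some pump genes. All 22 markers on the list, among them Tubb3, Prph and Nefh, were tested, and all 22 had a log2 fold change above 0, with a median of 0.51. Without both PRATA replicate 3 and sham replicate 1, the median was 0.32 and 20 of the 22 were above 0. Of these 22, 7 were higher at an unadjusted p under 0.05 in edgeR, beside 8.19% of all genes tested. At an adjusted p under 0.05 there were 0. Their summed level lay between 16560 and 24377 CPM after PRATA and between 11371 and 17679 CPM after the sham operation, and no marker was at 0. The mean log2 level of the markers was 9.02, 8.64 and 9.02 after PRATA and 8.05, 8.67 and 8.32 after the sham operation. Sham replicate 2 was thus the highest sham sample and PRATA replicate 2 the lowest PRATA sample, and they overlapped.

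Atp1b1 and Atp2b2 ranked the 6 samples in the same order, with PRATA replicate 1 highest, then PRATA replicate 3, sham replicate 2, PRATA replicate 2, sham replicate 3 and sham replicate 1. The marker mean had PRATA replicates 1 and 3 at nearly equal values on top and the same order below them. Atp2b3 differed from this order in that sham replicate 2 stood above PRATA replicate 3. Atp1b3, Atp2a2, Atp2b1 and Atp2b4 followed other orders. The orders are descriptions over 6 samples that share their libraries and depths.

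**Figure D2:**
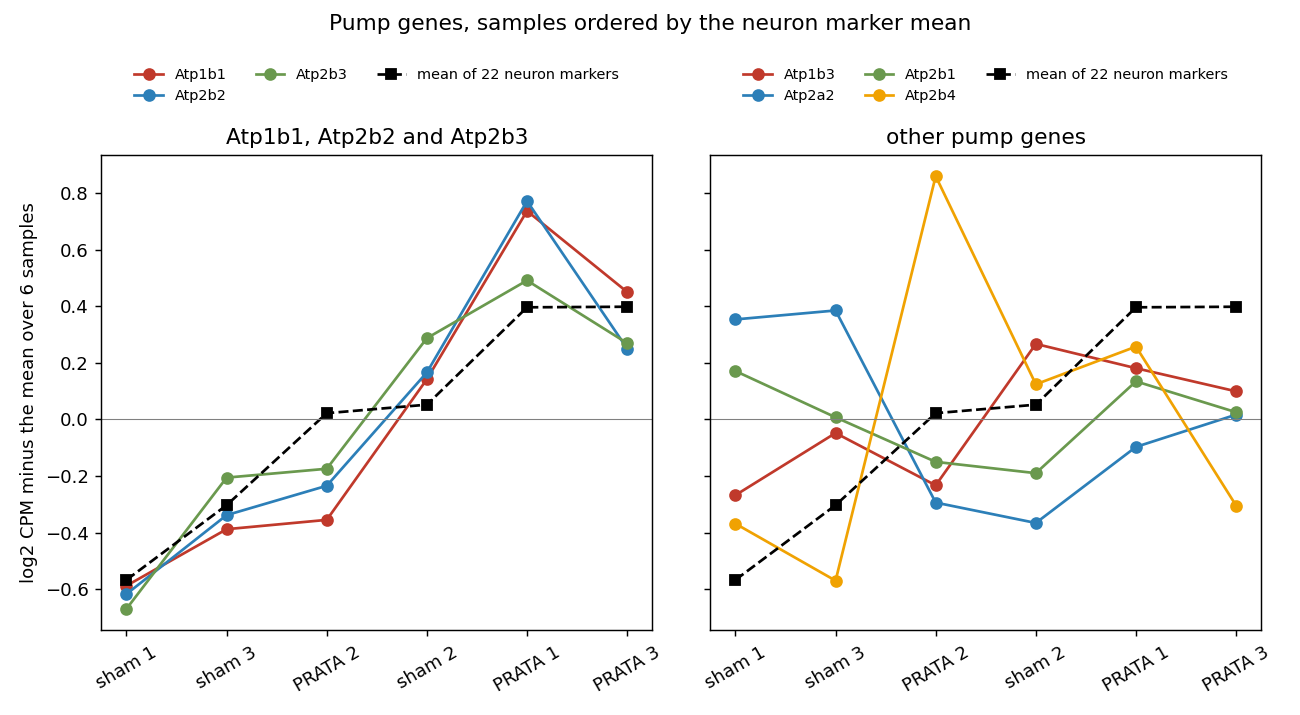
Log2 CPM minus the mean over the 6 samples (y axis) of the 7 pump genes, with samples on the x axis ordered by the mean of 22 sensory neuron markers (black dashed line). In the left panel Atp1b1, Atp2b2 and Atp2b3 are lowest in sham replicate 1 and highest in PRATA replicate 1, while in the right panel Atp2b4 peaks in PRATA replicate 2 and Atp2a2 is highest in sham replicates 1 and 3.

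Levels relative to the neuron markers were obtained by subtracting the marker mean of each sample from the log2 CPM of a gene. The marker mean itself was 0.54 higher after PRATA on the log2 scale. On this relative scale, the difference of PRATA against sham was 0.01 for Atp1b1, -0.02 for Atp2b2, -0.15 for Atp2b3 and 0.00 for Atp2b4, all with overlapping groups. It was -0.51 for Atp1b3, -0.54 for Atp2b1 and -0.79 for Atp2a2. The relative level of Atp2b4 still varied widely, from -2.79 in PRATA replicate 3 to -1.25 in PRATA replicate 2. Atp1b3 was the only one of the 7 genes whose groups did not overlap on this scale. It lay between -0.60 and -0.51 after PRATA and between -0.08 and 0.00 after the sham operation. Among all genes tested, 30.1% were lower and 0.664% higher after PRATA without overlap on this scale, so separation in the lower direction was common. No test was made on this scale, and the part of the neuron markers in the levels of the pump genes was not tested.

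Markers of satellite glial cells had fold changes of the opposite sign. All 12 on the list were tested and all 12 had a log2 fold change below 0, with a median of -0.47. Of these, 1 was lower at an unadjusted p under 0.05 in edgeR, beside 10.1% of all genes tested. This was Sox10, with a log2 fold change of -1.63 and an adjusted p of 0.156 in edgeR. At an adjusted p under 0.05 there were 0 of the 12. The median was -0.93 without PRATA replicate 2, -0.28 without PRATA replicate 1 and -0.26 without PRATA replicate 3, and without both PRATA replicate 3 and sham replicate 1 it was -0.19 with 5 of the 12 above 0. Without sham replicate 2 it was -0.71. The list holds Atp1b2, the beta2 subunit of Na,K-ATPase. Over the 10 markers that are not sodium pump genes, the summed level lay between 3365 and 6401 CPM after PRATA and between 4513 and 8782 CPM after the sham operation. PRATA replicate 2 was highest in its group and sham replicate 2 lowest in its group. Most of this sum was the single gene Apoe, at 3319, 5229 and 2779 CPM after PRATA and 6283, 3707 and 7473 CPM after the sham operation. Sham replicates 1 and 3, the samples with the highest sums, were also the 2 highest samples of Atp2a2, but PRATA replicate 2 was low for Atp2a2. The part of the glial markers in these levels was not tested.

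Markers of other cell types were also detected. Of 9 Schwann cell markers, 2 were higher and 0 lower at an unadjusted p under 0.05, beside 8.19% and 10.1% of all genes tested. For 4 the groups did not overlap, with PRATA higher, beside 11.6% of all genes tested. All 9 had a log2 fold change above 0, with a median of 0.80 and a summed level between 862 and 1500 CPM after PRATA and between 660 and 861 CPM after the sham operation. PRATA replicate 2, the sample with the highest Atp2b4, was also the highest for this list, and without it the median was 0.37 and 8 of the 9 were above 0. Summed fibroblast markers (9 tested) lay between 376 and 2074 CPM after PRATA and between 1062 and 1984 CPM after the sham operation, with 0 higher and 1 lower. Their median log2 fold change was -0.52, with 2 of the 9 above 0. It was -0.18 without PRATA replicate 1 and -1.18 without PRATA replicate 3. Summed macrophage markers (10 tested) lay between 69.7 and 207 CPM and between 46.9 and 114 CPM, with 1 higher. PRATA replicate 2 was the highest sample for this list too. The median for this list was 0.71, with 8 of the 10 above 0, and it was 1.32 without sham replicate 1. Summed endothelial and mural cell markers (11 tested) lay between 203 and 282 CPM and between 95.1 and 248 CPM, with 1 higher. Again PRATA replicate 2 was the highest sample, close to PRATA replicate 3 at 275 CPM. Here the median was 0.32, with 9 of the 11 above 0. It was 0.05 without sham replicate 3 and 1.06 without sham replicate 2. The macrophage marker Cx3cr1 did not pass the filter on low counts. No marker of these 4 lists had an adjusted p under 0.05 in edgeR, and their part in the levels of the pump genes was not tested.

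The shares of the PMCA genes in their summed counts describe which pump gene supplied the transcripts of a sample. Atp2b1 took the largest share of counts in every sample, at 38.4%, 38.3% and 43.5% after PRATA and 57.2%, 38.3% and 51.1% after the sham operation. Its mean share was 40.1% ± 3.01 in PRATA samples and 48.9% ± 9.65 in sham samples (SD, n = 3 each). The groups overlapped at a difference of -8.80 percentage points, since sham replicate 2 lay at the low end with PRATA replicates 1 and 2 (exact two-sided permutation test, p = 0.40). The difference was -4.63 percentage points without sham replicate 1, -14.1 without sham replicate 2 and -6.37 without both PRATA replicate 3 and sham replicate 1. Longer transcripts collect more counts, so the order of the shares within a sample is one of counts and not of molecules.

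The other PMCA genes shared the remaining counts in similar parts on average. Atp2b2 held 18.8% ± 4.58 after PRATA and 15.7% ± 3.06 after the sham operation (SD, n = 3; exact permutation test, p = 0.40). Atp2b3 held 20.5% ± 3.30 and 19.1% ± 4.75 (SD, n = 3; exact permutation test, p = 0.70). Atp2b4 held 16.9%, 31.1% and 14.0% after PRATA and 15.9%, 19.2% and 13.8% after the sham operation, so PRATA replicate 2 stood apart from the other 5 samples (exact permutation test, p = 0.60). Without both PRATA replicate 3 and sham replicate 1, the difference of PRATA against sham was -2.36 percentage points for Atp2b3 and 7.46 for Atp2b4. With 3 samples against 3, no p under 0.10 is possible, and adjusted over 10 shares the exact permutation p-values lay between 0.40 and 0.70. The widest 95% Wilson half-width of these 4 shares was 1.64 percentage points, which covers counting error only and is below the spread between samples.

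**Figure D3:**
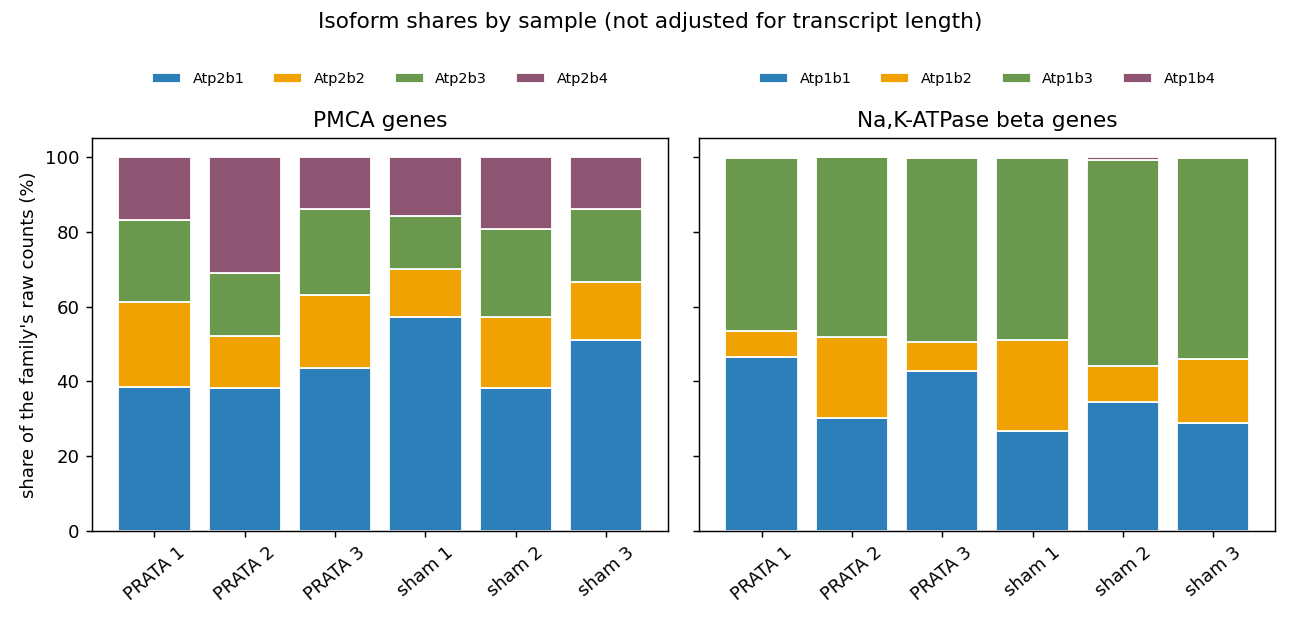
Share of each gene in the summed raw counts of its family (y axis, %) in each of the 6 samples (x axis). The left panel shows the PMCA genes and the right panel Atp1b1 to Atp1b4, grouped by symbol. Atp2b4 reaches 31.1% of PMCA counts in PRATA replicate 2 alone, and Atp1b1 takes its largest shares in PRATA replicates 1 and 3; Atp1b4 stays below 1% in every sample.

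Summed over the 4 PMCA genes, the level was 657, 541 and 537 CPM after PRATA and 452, 526 and 452 CPM after the sham operation. The groups did not overlap, although PRATA replicate 3 and sham replicate 2 were close, and the ratio of the means was 1.21. This sum was computed with the single genes known and was not tested. The summed genes Atp1b1 to Atp1b4 had a ratio of 1.12 and the summed SERCA genes a ratio of 0.844, both with overlapping groups.

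Of the summed counts of Atp1b1 to Atp1b4, Atp1b1 held 46.5%, 30.1% and 42.9% after PRATA and 26.7%, 34.5% and 28.9% after the sham operation. Sham replicate 2 lay above PRATA replicate 2, so the groups overlapped at a difference of 9.80 percentage points (exact permutation test, p = 0.20). Atp1b3 held 48.0% ± 1.43 after PRATA and 52.6% ± 3.31 after the sham operation (SD, n = 3; exact permutation test, p = 0.20). Atp1b2 held between 6.86% in PRATA replicate 1 and 24.2% in sham replicate 1, and the 3 samples with its largest shares were sham replicates 1 and 3 and PRATA replicate 2. Those were also the 3 samples with the highest levels of summed satellite glial markers. Of the SERCA counts, Atp2a2 held 95.2% ± 1.09 after PRATA and 97.6% ± 1.25 after the sham operation (SD, n = 3; exact permutation test, p = 0.20), and the rest was Atp2a3.

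The genes outside the 7 that were grouped with Atp1b1 and Atp1b3 by symbol were Atp1b2 and Atp1b4. Atp1b2 was at 53.6, 122 and 53.1 CPM after PRATA and 132, 66.3 and 98.2 CPM after the sham operation. PRATA replicate 2 and sham replicates 1 and 3 were thus its highest samples, and the log2 fold change was -0.37 (SE 0.38), with an adjusted p of 0.629 in edgeR, between -0.89 without PRATA replicate 2 and -0.12 without sham replicate 1. Atp1b4, at 0.717 to 4.84 CPM in the 6 samples, had a log2 fold change of -1.29 (SE 0.65), with an adjusted p of 0.326 in edgeR. It was highest in sham replicate 2, and the value was -0.49 without that sample and -1.92 without both PRATA replicate 3 and sham replicate 1. The H,K-ATPase genes Atp12a, Atp4a and Atp4b did not pass the filter on low counts.

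FXYD proteins are small membrane partners that tune the ion affinity of Na,K-ATPase. Of the 6 tested, 0 had an unadjusted p under 0.05 in edgeR, beside 8.19% of all genes tested that were higher and 10.1% that were lower. The median log2 fold change was 0.25 with all samples, -0.0070 without PRATA replicate 2, 0.14 without PRATA replicate 3, 0.15 without sham replicate 2 and 0.04 without both PRATA replicate 3 and sham replicate 1. Fxyd2, the gamma subunit, was at 86.2, 53.5 and 98.9 CPM after PRATA and 55.1, 70.1 and 58.0 CPM after the sham operation, and Fxyd7 at 43.1, 24.2 and 52.3 CPM and 26.9, 38.2 and 30.5 CPM. Both were lowest in PRATA replicate 2, unlike Fxyd6, which was highest there at 21.0 CPM beside 10.1 to 12.9 CPM in the other 5 samples.

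Atp2a3, which encodes the second SERCA gene in the table, SERCA3, was the pump gene with the clearest separation. Its level was 22.2, 20.6 and 15.9 CPM after PRATA and 10.5, 13.3 and 8.60 CPM after the sham operation. All 3 PRATA samples lay above all 3 sham samples, with a log2 fold change of 0.86 (SE 0.24), but the adjusted p in edgeR was 0.169. Over the alternatives the adjusted p lay between 0.037 and 0.550, and limma voom with sample quality weights was the 1 of 17 that placed it under 0.05. Relative to the neuron marker mean, its difference was 0.32 with overlapping groups. Atp2c1, a calcium and manganese pump of the Golgi apparatus, ranked the samples as Atp1b1 did and had a log2 fold change of 0.47 (SE 0.22), with an adjusted p of 0.302 in edgeR. Pln, the SERCA inhibitor phospholamban, was at 3.0 to 8.5 CPM and had a log2 fold change of 0.50 (SE 0.41), which was 0.10 without PRATA replicate 2. Of the 4 genes tested on the list of SERCA, Golgi pumps and SERCA regulators, 1 was higher at an unadjusted p under 0.05. This compares with 8.19% of all genes tested, and 0 of the 4 had an adjusted p under 0.05.

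**Figure D4:**
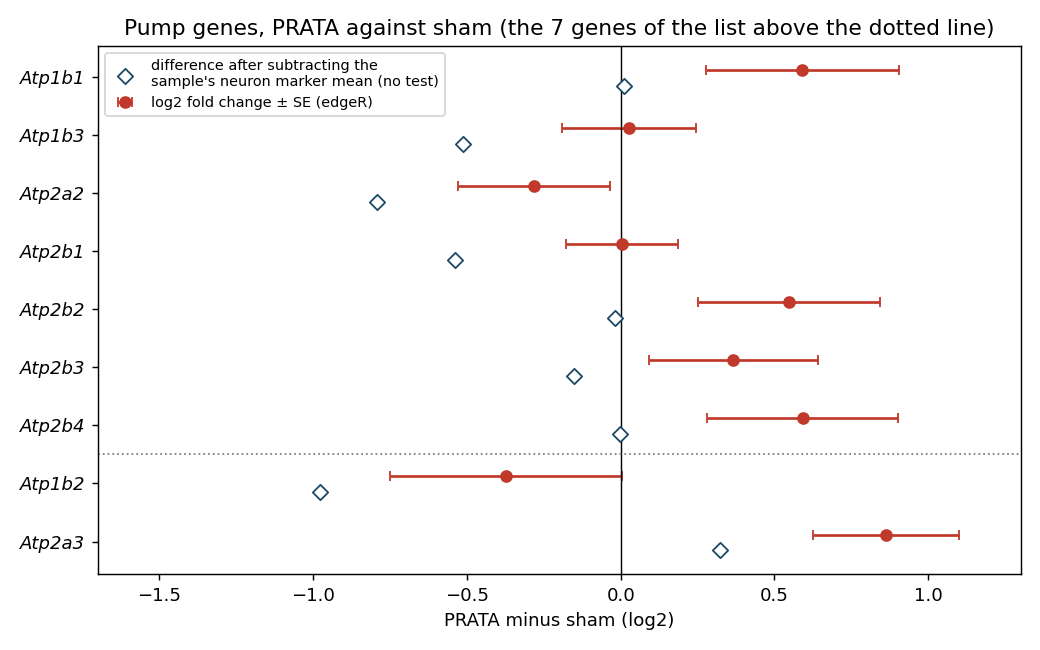
PRATA minus sham on the log2 scale (x axis) for the 7 pump genes above the dotted line and 2 related pump genes below it; filled circles show the log2 fold change ± SE from edgeR and open diamonds the difference after the neuron marker mean of each sample was subtracted. Atp1b1, Atp2b2 and Atp2b4 lie near 0.6 as circles and near 0 as diamonds, and Atp2a3 has the highest log2 fold change at 0.86.

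PMCAs carry the glycoproteins neuroplastin (Nptn) and basigin (Bsg) as obligatory subunits and are activated by calmodulin. Nptn was at 149, 132 and 130.2 CPM after PRATA and 126, 128 and 122 CPM after the sham operation. Bsg was at 327, 321 and 334 CPM after PRATA and 238, 299 and 276 CPM after the sham operation. Neither pair of groups overlapped, but the log2 fold changes were 0.13 (SE 0.15) and 0.27 (SE 0.18), with adjusted p-values of 0.665 and 0.440 in edgeR. They were 0.05 for Nptn without PRATA replicate 1 and 0.17 for Bsg without sham replicate 1.

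Sodium-calcium exchangers extrude calcium at the expense of the sodium gradient that Na,K-ATPase maintains. Of the 8 tested, 1 was higher and 0 lower at an unadjusted p under 0.05, beside 8.19% and 10.1% of all genes tested. This was Slc24a3, a potassium-dependent exchanger, at 21.6, 12.1 and 16.8 CPM after PRATA and 9.7, 12.6 and 9.3 CPM after the sham operation, with a log2 fold change of 0.68 (SE 0.26) and an adjusted p of 0.237 in edgeR. PRATA replicate 2 again lay below sham replicate 2, and the value was 0.44 without PRATA replicate 1. Slc24a2, of the same family, and Slc8a2, the exchanger NCX2, had log2 fold changes of 0.58 (SE 0.27) and 0.40 (SE 0.20), with adjusted p-values of 0.296 and 0.323 in edgeR. The value of Slc24a2 was 0.29 without PRATA replicate 1.

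Calcium channels of the store and the plasma membrane form the inward side of the same balance. The 12 genes for release from the endoplasmic reticulum and store-operated entry were all tested. Of these, 2 were higher and 0 lower at an unadjusted p under 0.05, beside 8.19% and 10.1% of all genes tested. Groups did not overlap for 3 of the 12 with PRATA higher and for 1 with PRATA lower. These compare with 11.6% and 11.2% of all genes tested. Orai2, a pore subunit of store-operated channels, was at 28.3, 22.5 and 30.4 CPM after PRATA and 20.4, 15.9 and 17.0 CPM after the sham operation, without overlap and with a log2 fold change of 0.60 (SE 0.19; adjusted p of 0.194 in edgeR). Ryr2, a ryanodine receptor, had a log2 fold change of 0.65 (SE 0.24; adjusted p of 0.227 in edgeR), with sham replicate 2 above PRATA replicate 2. Itpr3, an inositol trisphosphate receptor, was lower in mean at -0.66 (SE 0.34; adjusted p of 0.328 in edgeR), and its samples were 133, 242 and 119 CPM after PRATA and 297, 171 and 315 CPM after the sham operation. Its high sham samples were those of Atp2a2, replicates 1 and 3, and its log2 fold change was -1.05 without PRATA replicate 2.

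Of the 8 genes around the mitochondrial calcium uniporter, 0 had an unadjusted p under 0.05 in edgeR. Among all genes tested, 8.19% were higher and 10.1% lower at this threshold. The median log2 fold change of the 8 genes was 0.13. With each sample left out in turn that median lay between 0.02 (without sham replicate 1) and 0.32 (without sham replicate 2), and without both PRATA replicate 3 and sham replicate 1 it was -0.0067. Mcub, a dominant negative subunit, was higher in every PRATA sample (11.7 to 13.5 CPM) than in every sham sample (10.2 to 10.5 CPM), with a log2 fold change of 0.31 (SE 0.19; adjusted p of 0.422 in edgeR). Smdt1 and Micu3, which encode regulators of the uniporter, had log2 fold changes of 0.56 (SE 0.39) and 0.26 (SE 0.25) with overlapping groups. For Smdt1 the value was 0.19 without PRATA replicate 1, and for Micu3 it was 0.07 without PRATA replicate 1 and 0.03 without sham replicate 1. For calcium buffers and store proteins, 10 genes were tested. Of these, 1 was higher and 0 lower at an unadjusted p under 0.05, beside 8.19% and 10.1% of all genes tested. This was Hpcal1, a neuronal calcium sensor, at 106, 81.7 and 85.3 CPM after PRATA and 48.8, 79.4 and 50.1 CPM after the sham operation. Its groups did not overlap, its log2 fold change was 0.62 (SE 0.23), and its adjusted p was 0.228 in edgeR, 0.042 in limma voom with sample quality weights and 0.044 in edgeR without sham replicate 2, within a range up to 0.586 over the alternatives. Calb1, the buffer calbindin, had a log2 fold change of 0.65 (SE 0.38; adjusted p of 0.386 in edgeR), and Ncs1, another sensor, 0.24 (SE 0.14; adjusted p of 0.408 in edgeR), the latter without overlap. Without PRATA replicate 1 the value of Calb1 was 0.20.

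For the highest and the lowest log2 fold change among the 7 genes, those of Atp2b4 and Atp2a2, the genes with the most similar levels over the 6 samples were sought among 5254 genes with a mean log2 CPM of at least 5. Likeness was the root mean square difference of log2 CPM after the mean of each gene was subtracted. For Atp2b4 the nearest were Gfra3 (0.19), Alpk1 (0.20) and Ptprt (0.21), beside a median of 0.55 over all genes compared. Gfra3, a receptor subunit for artemin found in nociceptive neurons, was at 54.9, 83.7 and 53.1 CPM after PRATA and 38.3, 48.4 and 31.0 CPM after the sham operation, with its highest level in PRATA replicate 2, as for Atp2b4. For Atp2a2 the nearest were Nol10 (0.06), Rnf40 (0.06) and Enox1 (0.07), beside a median of 0.37. Nol10 was at 38.3, 36.8 and 41.4 CPM after PRATA and 54.1, 34.5 and 53.3 CPM after the sham operation, with sham replicate 2 the lowest sample, as for Atp2a2.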

How the data were processed

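The table deposited by the authors holds raw read counts per gene for 6 samples (3 PRATA, 3 sham), without normalization. The submitters' processing notes name STAR 2.7.3a, RSEM and DESeq2, whereas the methods of the study name HISAT2, StringTie and Cuffdiff. Which tool made the counts, the genome build, the annotation and the strand setting are not given in the sources used here. Reads shared by near-identical paralogs could be split differently by these tools.

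The software was edgeR 4.0.16, DESeq2 1.42.0 and limma 3.58.1 under R 4.3.3, and shares and figures were made in Python 3.11.15. Genes were kept by filterByExpr (minimum count 10, minimum total 15), scaled by TMM (factors 0.953 to 1.10) and compared by the two-sided quasi-likelihood test without covariates, with p-values adjusted by Benjamini-Hochberg over the 14919 genes tested. Fold changes are on the log2 scale. The fit was tested on simulated data with known changes. Shares used raw counts and exact two-sided permutation tests. Levels relative to the neuron markers used the mean log2 CPM of the markers with a pseudocount of 1. The floor of 3 counts and the intervals cover counting error only, as no molecular identifiers part molecules from PCR copies. Groups were taken from the sample titles.

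The 7 genes, the gene lists and the tests were chosen with earlier results of these data known. Named were the 7 genes, up to 3 genes with the smallest p of each list, genes of the same families, and the 3 genes most alike in level to the members with the highest and the lowest log2 fold change. Markers named as examples were chosen after their values were seen. Results of a few further genes of these lists are left out. Atp2a1, Strit1, Mrln, Pecam1 and Col1a2 were not found by symbol and were not analysed here. Alternatives were other normalizations, filters, tests, the replicate block, each sample left out, 4 samples without PRATA replicate 3 and sham replicate 1, and protein-coding genes alone.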

Additional observations from a re-analysis of the deposited data

How the results depend on the processing

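With 3 samples a group, no result here rests on more than the spread between these samples, and depth is lowest in sham replicate 2. Of 126 values of the 7 genes under the alternatives, 106 kept their direction and side of the threshold and 13 changed direction. The other 7 were the levels relative to the neuron markers, which have no p. All 7 of these moved from the main log2 fold change by at least the SD within groups. None of the values that were tested passed an adjusted p under 0.05. The log2 fold change of Atp2b1 was -0.019 with DESeq2's size factors, -0.020 with DESeq2, -0.026 with library size alone and with protein-coding genes alone, -0.0046 with at least 10 counts in every sample, and -0.088 to 0.079 with each sample left out. That of Atp1b3 was -0.027 with library size alone, -0.14 in the 4 samples without PRATA replicate 3 and sham replicate 1, and -0.11 to 0.18 with each sample left out. In the same 4 samples, the log2 fold change was 0.089 for Atp1b2 and -0.042 for Fxyd7, the Atp2b3 share differed by -2.36 percentage points (-1.15 to 3.59 with each sample left out) and the Atp1b2 share by 0.955, while the Atp2b4 share ranged from -0.885 (without PRATA replicate 2) to 7.67. The number of the 7 genes higher at an unadjusted p under 0.05 was 3 without the filter on low counts, 4 in limma voom, 1 in those 4 samples and 0 to 4 with each sample left out, and the number lower 0 to 1; the 4 and the 1 (Atp2a2) came without sham replicate 2. At the same threshold, 1372 of all 25689 genes were higher and 2104 lower without the filter on low counts. In limma voom 2324 of 14919 were higher and 2282 lower, and in the 4 samples 885 of 14808 higher and 1022 lower. Leaving out each sample gave 548 to 2073 higher and 858 to 2181 lower. The 2073 and 2181, of 15438 genes, came without sham replicate 2. At an adjusted p under 0.05, DESeq2 gave 226 higher and 502 lower, limma voom 447 and 726, edgeR without sham replicate 2 gave 162 and 559, and the 4 samples 9 and 4. With the replicate block, 621 genes were higher and 907 lower, and 1 of the 7 genes (Atp2b4) was higher. Same-numbered samples had deviations from their group means that correlated across genes at -0.39, -0.10 and -0.36, and no sample matched its own number best, so the numbers gave no sign of pairing. The causes of these shifts were not tested. Counts per kilobase of transcript were not run, since no transcript lengths were used.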
